A study of Mus musculus with 5 samples.

Results

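The genes described here are the 10 MHC class I antigen presentation genes H2-K1, H2-D1, B2m, Tap1, Tap2, Tapbp, Psmb8, Psmb9, Psmb10 and Nlrc5, chosen by name for their place in the pathway. All 10 were among the 12934 genes listed in the deposited counts, and 9 passed the expression filter and were among the 12483 genes tested, Psmb9 being too low. The RNA came from EpH4 cells, a mammary epithelial cell line from a BALB/c mouse, that had been made to express Cas9 by a lentivirus and then received a second lentivirus with a control sgRNA (sgControl, 3 libraries) or with an sgRNA against Mef2d (sgMef2d, 2 libraries), so that the groups shared Cas9 and the drug selection for both viruses. The cells were grown in medium with serum, the labels name no interferon or other ligand, and the methods call the selected cells stable clones without saying whether the numbered libraries are separate cultures. If they are not, the p-values measure technical spread only. The methods name 2 sgRNAs against Mef2d, and the labels do not say which of them each sgMef2d library carries, so the spread between these libraries may include a difference between guides.

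MHC class I molecules show short peptides from inside the cell to CD8 T cells. A polymorphic heavy chain, encoded in the mouse by H2-K1 and H2-D1 among others, pairs with the invariant light chain β2-microglobulin (B2m). The peptides are cut from proteins by the proteasome, in which the inducible subunits encoded by Psmb8, Psmb9 and Psmb10 can take the places of the constitutive subunits encoded by Psmb5, Psmb6 and Psmb7 to form the immunoproteasome. The transporter encoded by Tap1 and Tap2 moves the peptides into the endoplasmic reticulum (ER), where tapasin (Tapbp) holds the empty class I molecule next to it. Nlrc5 encodes the transactivator of class I genes, which works through factors bound to the X and Y boxes of their promoters, and many genes of the pathway are also induced by interferons through STAT and IRF factors. Nearly all nucleated cells, mammary epithelium included, carry class I molecules.

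The members lie on 3 chromosomes of GRCm38. The MHC on chromosome 17 holds 7 of them over 1352 kb, with Psmb9, Tap1, Psmb8 and Tap2 next to each other within 34.3 kb, while Psmb10 and Nlrc5 lie on chromosome 8 and B2m on chromosome 2. The annotated starts of Psmb9 and Tap1 are 226 bases apart in RefSeq and point away from each other. The promoter sequences are shown because the light chain and the heavy chains share an arrangement of sites that is rare among promoters. RefSeq windows of GRCm38.p6, from 250 bases before to 50 after an annotated start, were present for 8 of the 10 members, in 9 windows. H2-K1 has more than 1 such start. For H2-D1, the 180 bases before the RefSeq start lie within exons of its GENCODE gene model. The letters searched on both strands were GGG, any 2 bases, TT, any 1 base and CC for a κB site (bound by NF-κB), TGACG for the X2 box or cyclic AMP response element, CCAAT for the Y box (bound by NF-Y), GAAA, any 2 bases and GAAA for the interferon-stimulated response element (ISRE), TTC, any 3 bases and GAA for the gamma-activated site (GAS) and CTA, any 4 bases and TAG for MEF2. The κB, X2 and Y letters occurred together in H2-K1, H2-D1 and B2m, and in 135 of all 32851 windows (0.411%). In these 3 genes the X2 letters were followed, after exactly 20 bases, by the Y box read on the opposite strand. This spacing, noticed after the windows were searched, was found in 31 windows of 27 genes (0.0944%), among them H2-M3, another class I heavy chain. The 30 bases of each gene are given 5′ to 3′ on the strand of the gene. Capitals mark the X2 letters and the Y box of this spacing. H2-M3 holds a further CCAAT between them, left in lower case.
H2-K1, chr17:34000359-34000388, minus strand: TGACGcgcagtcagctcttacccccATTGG
H2-D1, chr17:35262993-35263022, plus strand: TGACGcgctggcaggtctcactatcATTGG
B2m, chr2:122147609-122147638, plus strand: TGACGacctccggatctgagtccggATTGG
H2-M3, chr17:37270188-37270217, plus strand: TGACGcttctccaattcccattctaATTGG

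Between the capitals the sequences diverged. H2-K1 and H2-D1 were identical at 23 of these 30 bases, and B2m was identical to them at 13 and 12 of 30, the 10 searched bases included. H2-K1 and H2-D1 were also alike upstream, with the same κB site GGGGATTCCC starting 70 bases before the X2 letters in both, and 89 of 100 bases identical from that site through the Y box. The proximal promoter of H2-K1 is given as the 180 bases up to the more upstream of its RefSeq starts, at chr17:34000348-34000527 on the minus strand. It shows the order, with the κB site, the X2 letters and the Y box in capitals.
H2-K1 promoter: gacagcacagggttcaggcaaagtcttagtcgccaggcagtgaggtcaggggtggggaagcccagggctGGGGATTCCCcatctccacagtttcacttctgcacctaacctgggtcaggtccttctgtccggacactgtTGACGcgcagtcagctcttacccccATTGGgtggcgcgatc

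In B2m an ISRE stood just before a κB site on the opposite strand (chr2:122147548-122147570), both in capitals.
B2m ISRE and κB: GAAACTGAAAatgGGAAAGTCCC

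The ISRE letters occurred in B2m alone of the 8 genes and in 3.44% of all windows, and the GAS letters in Psmb8 alone and in 8.30%. Sites spelled with other letters were not searched for, so the other genes are not shown to lack an interferon site. The MEF2 letters occurred in 0 of the 8 genes and in 3.69% of all windows, which says only that these letters are not in these windows. Tap1 and Psmb9 each held an X2 and a Y match, which are the same bases of their common region read from either side. The Y letters alone were in 37.4% of all windows, the X2 letters in 20.8% and the κB letters in 4.79%. Binding was not measured in these libraries, and a match of letters is not a site in use.

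**Figure D1:**
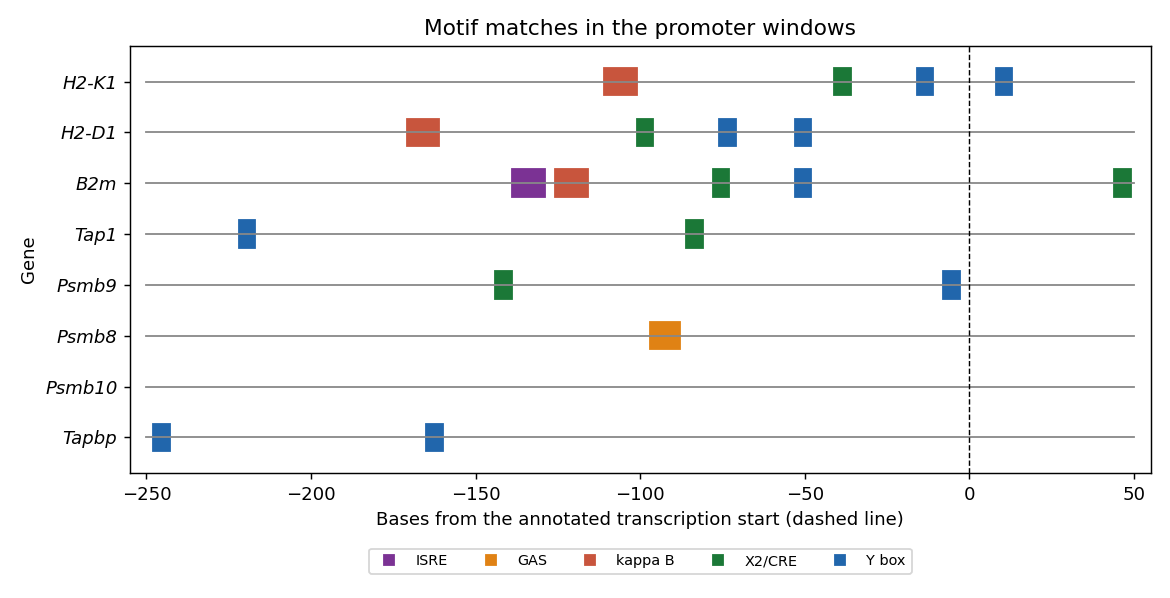
Matches of the searched letters in the promoter windows of 8 of the genes, with the distance from the annotated start in bases on the horizontal axis and a coloured block for each match. H2-K1, H2-D1 and B2m carry a κB, an X2 and a Y block in this order, and Psmb10 carries none of the blocks.

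Library totals lay between 13601145 and 20498563 counts. The sgControl replicate 1 library stood apart, with a chi-square per degree of freedom (1 for counting error alone) of 10.6 and 13.6 against sgControl replicates 2 and 3, as against 1.99 between these and 2.03 between the sgMef2d libraries, so the counts of genes past the threshold are also given without it, as are the values of the members that it moved most. Mef2d, the targeted gene, reached 64.3, 76.9 and 71.5 CPM (counts scaled to a fixed library total, with TMM factors) in sgControl and 64.2 and 65.8 CPM in sgMef2d, which did not separate the groups (log2 fold change -0.12, edgeR adjusted p = 0.400). Without sgControl replicate 1 it was past the threshold (log2 fold change -0.19, edgeR adjusted p = 0.00550), without sgControl replicate 2 it was -0.06 (edgeR adjusted p = 0.770), and counts per gene do not show an edit. Of 8 epithelial markers 7 were listed, with a summed level of 2548 to 2637 CPM in sgControl and 2515 and 2601 CPM in sgMef2d. Of 10 leukocyte markers 3 were listed, Csf1r, Cd68 and Lyz2, with 3.41 to 4.18 CPM in sgControl and 4.83 and 5.12 CPM in sgMef2d, while Ptprc, which marks leukocytes, was not listed, nor was any of 6 endothelial markers. Of 8 fibroblast markers 6 were listed, with 643 to 767 CPM in sgControl and 608 and 649 CPM in sgMef2d. Single markers moved within these sums, as Cldn4, Col3a1 and Dcn rose and Krt18 and Col1a2 fell in sgMef2d (edgeR adjusted p = 0.0407, 0.00142, 0.0203, 0.0207 and 0.000232), and their part in the results was not tested.

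EpH4 cells carried RNA for all 10 genes, at levels that differed widely between members. To compare genes, CPM were divided by the kilobases of exon of each gene. In sgControl, B2m was highest with 183 ± 24.3 CPM per kb (SD, n = 3), followed by Tapbp with 63.6 ± 4.99, H2-D1 with 43.1 ± 2.20, Psmb10 with 19.7 ± 0.441, Psmb8 with 12.4 ± 1.29, Tap2 with 6.63 ± 0.543 and Tap1 with 1.63 ± 0.187 CPM per kb. Far below them were H2-K1 with 0.241 ± 0.0584, Nlrc5 with 0.210 ± 0.0442 and Psmb9 with 0.133 ± 0.0476 CPM per kb. The sgControl ranges of neighbours in this order overlapped only for H2-K1 and Nlrc5. B2m stood at the percentile 98.4 of all genes listed and Psmb9 at 2.72. With the longest transcript as the length the order was the same, and with the coding length Psmb8 came before Psmb10 and Psmb9 before H2-K1.

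Genes that work as partners were not at like levels. H2-D1 was 179 times as high per kilobase as H2-K1, Psmb10 and Psmb8 were 149 and 93.8 times as high as Psmb9, and Tap2 was 4.06 times as high as Tap1. The heavy chains differ between mouse strains. BALB/c mice, the source of EpH4 cells, carry the H-2d haplotype, and the genome aligned to is that of C57BL/6J, which carries H-2b. The H2-K1 and H2-D1 levels are therefore those of reads assigned to the alleles of another haplotype, and the gap between them may not be one in expression. The part of the alleles in it was not tested. The promoters printed above are those of the reference strain too. Of the 50-base words in H2-K1 and H2-D1 transcripts, 9.63% and 12.8% also occur in transcripts of other genes, mostly of other class I genes, so reads could have been split or lost. Tap1 and Psmb9 share 212 exonic bases on opposite strands, and whether the counting used the strand is not given in the sources used here.

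**Figure D2:**
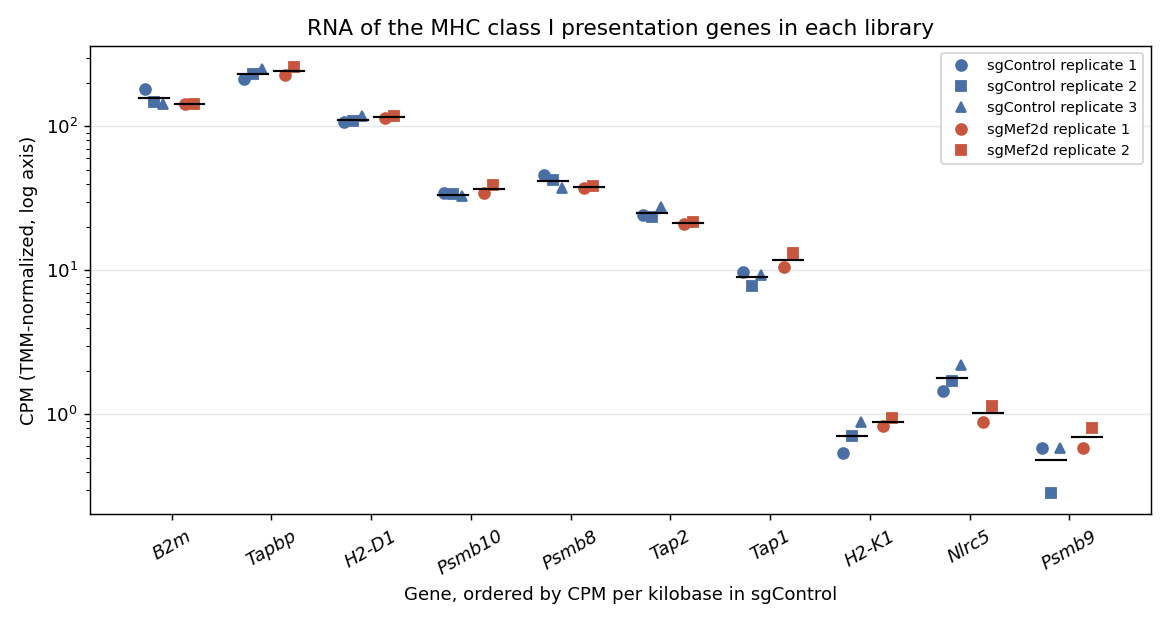
CPM of the 10 genes in each library on a log axis, with genes ordered by their level per kilobase, circles, squares and triangles for replicates 1, 2 and 3, and a bar at each group mean. B2m, Tapbp and H2-D1 lie above 100 CPM in all libraries, H2-K1 and Psmb9 lie below 1 CPM in all of them, and the 2 groups lie close together for most genes.

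Between the sgMef2d and the sgControl libraries, 0 of the 9 members tested had an adjusted p below 0.05 in edgeR's quasi-likelihood test (Benjamini-Hochberg over all genes tested), as against 992 of all 12483 genes (7.95%, of which 3.67% higher and 4.28% lower in sgMef2d). With 9 genes, a count of 0 does not set the members apart from that background. DESeq2 gave 0 of 10 members, as against 6.13% of all genes, and limma-voom 0 of 9, as against 7.55%. The members' count was also 0 with library totals alone (background 7.92%), with no expression filter (7.68%), with a stricter filter (7.74%) and with the legacy form of the edgeR test (7.87%). It was 0 without sgControl replicate 2 (4.84%) or 3 (6.51%) and without sgMef2d replicate 1 (1.88%) or 2 (1.83%). At an unadjusted p below 0.05, 3 of the 9 passed, Tap1, Tap2 and Nlrc5, as against 23.2% of all genes tested. The median log2 fold change of the members was 0.06, with 5 above and 4 below 0, and that of all genes tested was 0.0031. Both sgMef2d libraries lay outside the sgControl range in 5 of the 9, 2 above and 3 below, as against 41.1% of all genes tested, 20.6% above and 20.5% below. Without sgControl replicate 1, 3 of 9 members were past the threshold, as against 29.4% of all genes tested. These were Tap1, higher in sgMef2d, and Tap2 and Nlrc5, both lower.

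**Figure D3:**
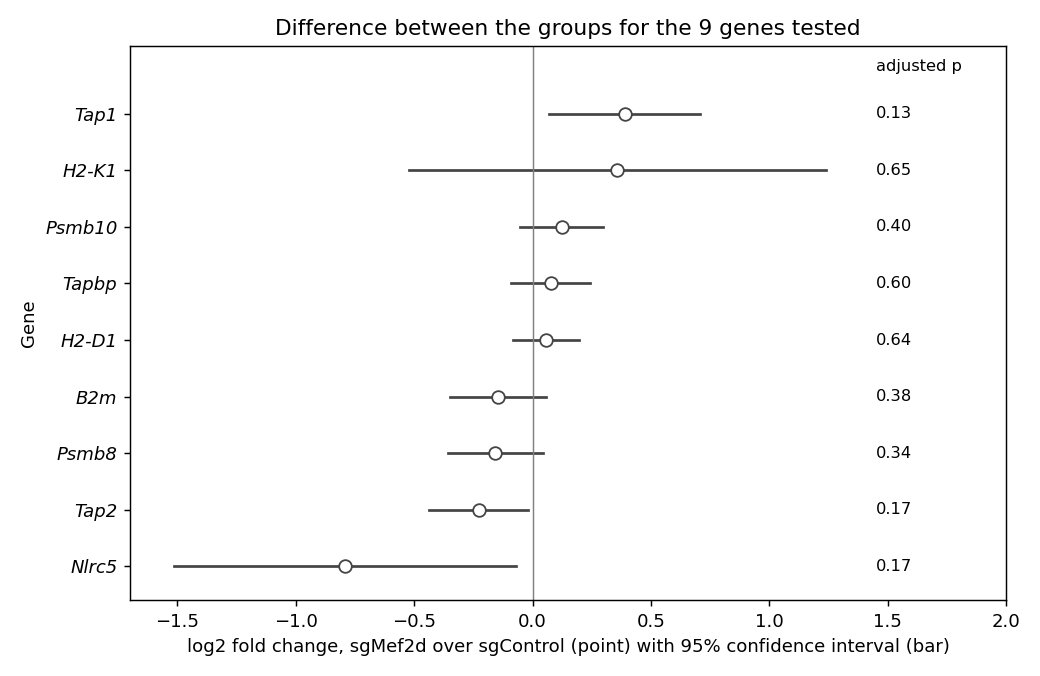
Log2 fold change of sgMef2d over sgControl (points) with its 95% confidence interval (bars) for the 9 genes tested, with the adjusted p of edgeR's quasi-likelihood test at the right. The intervals of H2-D1, Tapbp, Psmb10, B2m and Psmb8 lie within 0.36 of 0 on the log2 scale, and those of Tap1, Tap2 and Nlrc5 leave out 0 before adjustment.

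Neither B2m nor H2-D1, the heavy chain gene with more assigned reads than H2-K1, passed the threshold between the groups. B2m was measured at 181, 148 and 143 CPM in the sgControl libraries, in the order of their numbers, and at 143 and 142 CPM in sgMef2d. The sgMef2d values lay just below the lowest sgControl value, and sgControl replicate 1 was the high library. The log2 fold change of B2m was -0.15 (95% confidence interval -0.35 to 0.055, edgeR adjusted p = 0.378). It was -0.03 without sgControl replicate 1 and -0.21 without sgControl replicate 3. H2-D1 reached 107, 109 and 118 CPM in sgControl and 114 and 118 CPM in sgMef2d, so that the groups overlapped. Its log2 fold change was 0.06 (95% confidence interval -0.08 to 0.20, edgeR adjusted p = 0.638), or 0.03 without sgControl replicate 1 or sgMef2d replicate 2 and 0.10 without sgControl replicate 3, and the interval leaves out a rise or a fall of H2-D1 RNA beyond 14.7% and 5.52%. H2-K1, from 10 to 14 counts per library, reached 0.536, 0.709 and 0.879 CPM in sgControl and 0.824 and 0.943 CPM in sgMef2d. At this depth its interval was wide, from -0.52 to 1.24 around a log2 fold change of 0.36 (edgeR adjusted p = 0.646), so that neither a rise nor a fall of H2-K1 could be told from no difference. The log2 fold change of H2-K1 was 0.15 without sgControl replicate 1 and 0.53 without sgControl replicate 3. In bulk RNA, fewer cells with a transcript and less of it per cell cannot be told apart.

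The transporter subunits had fold changes of opposite sign. Tap1, the first subunit, reached 9.75, 7.80 and 9.31 CPM in sgControl and 10.5 and 13.3 CPM in sgMef2d. Both sgMef2d libraries were above the 3 sgControl libraries, and sgMef2d replicate 2 was the highest. The log2 fold change of Tap1 was 0.39 (95% confidence interval 0.07 to 0.71, edgeR adjusted p = 0.133). Without sgMef2d replicate 2 it was 0.21 (edgeR adjusted p = 0.706), and without sgControl replicate 1 it was 0.46 and past the threshold (edgeR adjusted p = 0.0102). Tap2, the partner subunit, reached 24.3, 23.5 and 27.4 CPM in sgControl and 21.1 and 21.6 CPM in sgMef2d. Both sgMef2d libraries were below the 3 sgControl libraries. The log2 fold change of Tap2 was -0.23 (95% confidence interval -0.44 to -0.02, edgeR adjusted p = 0.172), and -0.25 with an adjusted p of 0.0318 without sgControl replicate 1. The ratio of Tap1 to Tap2 per kilobase was 0.277, 0.229 and 0.234 in sgControl and 0.342 and 0.424 in sgMef2d. These groups did not overlap, but the ratio was chosen after the opposite signs had been seen, so it has no test. Tapbp, which bridges the transporter and the class I molecule, reached 213, 231 and 249 CPM in sgControl and 229 and 258 CPM in sgMef2d, which overlapped. Its log2 fold change was 0.08 (95% confidence interval -0.09 to 0.24, edgeR adjusted p = 0.599), and 0.02 without sgControl replicate 1, 0.13 without sgControl replicate 3, 0.15 without sgMef2d replicate 1 and -0.013 without sgMef2d replicate 2. Of the exonic bases of Tapbp, 24.9% are shared with a listed antisense gene, Gm19412.

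Of the inducible proteasome subunits, Psmb8 reached 46.1, 42.5 and 37.5 CPM in sgControl and 37.3 and 38.5 CPM in sgMef2d, with overlap. Psmb10 reached 34.3, 33.8 and 32.8 CPM in sgControl and 34.5 and 38.9 CPM in sgMef2d, where the lower sgMef2d library was just above the highest sgControl library. Their log2 fold changes were -0.16 (95% confidence interval -0.36 to 0.04, edgeR adjusted p = 0.339) and 0.12 (95% confidence interval -0.05 to 0.30, edgeR adjusted p = 0.401), both from edgeR's quasi-likelihood test. They were -0.08 and 0.14 without sgControl replicate 1. That of Psmb8 was -0.23 without sgControl replicate 3. That of Psmb10 was 0.20 without sgMef2d replicate 1 and 0.03 without sgMef2d replicate 2. Psmb9 had 12, 4 and 8 counts in sgControl and 10 and 12 counts in sgMef2d, or 0.284 to 0.586 CPM and 0.588 and 0.808 CPM. It was not tested in the main comparison, and with no expression filter its log2 fold change was 0.47 (edgeR adjusted p = 0.622).

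The inducible subunits were also read against the constitutive subunits whose places they take, as a ratio within each library that needs no scaling between libraries. The ratio of Psmb8 to Psmb5 per kilobase was 0.242, 0.224 and 0.202 in sgControl and 0.183 and 0.171 in sgMef2d. Both sgMef2d libraries were lower than the 3 sgControl libraries, with a log2 difference of -0.33 (exact two-sided permutation p = 0.2, adjusted p = 0.6 over 3 ratios). With 3 against 2 libraries, 0.2 is the smallest p that this test allows. Of the 50-base words of Psmb5 transcripts, 54.1% occur in other genes, mostly the pseudogene Gm3375, so reads of Psmb5 could have been split. The ratio of Psmb10 to Psmb7 was 0.317, 0.337 and 0.330 in sgControl and 0.315 and 0.346 in sgMef2d, with overlap (log2 difference 0.01, exact permutation p = 1). The ratio of Psmb9 to Psmb6 was between 0.00101 and 0.00227 in sgControl and 0.00192 and 0.00244 in sgMef2d, again with overlap (log2 difference 0.40, exact permutation p = 0.6). From these few counts of Psmb9 the difference was 0.63 without sgControl replicate 3, 0.23 without sgMef2d replicate 2 and 0.048 without sgControl replicate 2. So the RNA of the constitutive subunit exceeded that of the inducible one for each of the 3 pairs in all 5 libraries, under each of the lengths tried.

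**Figure D4:**
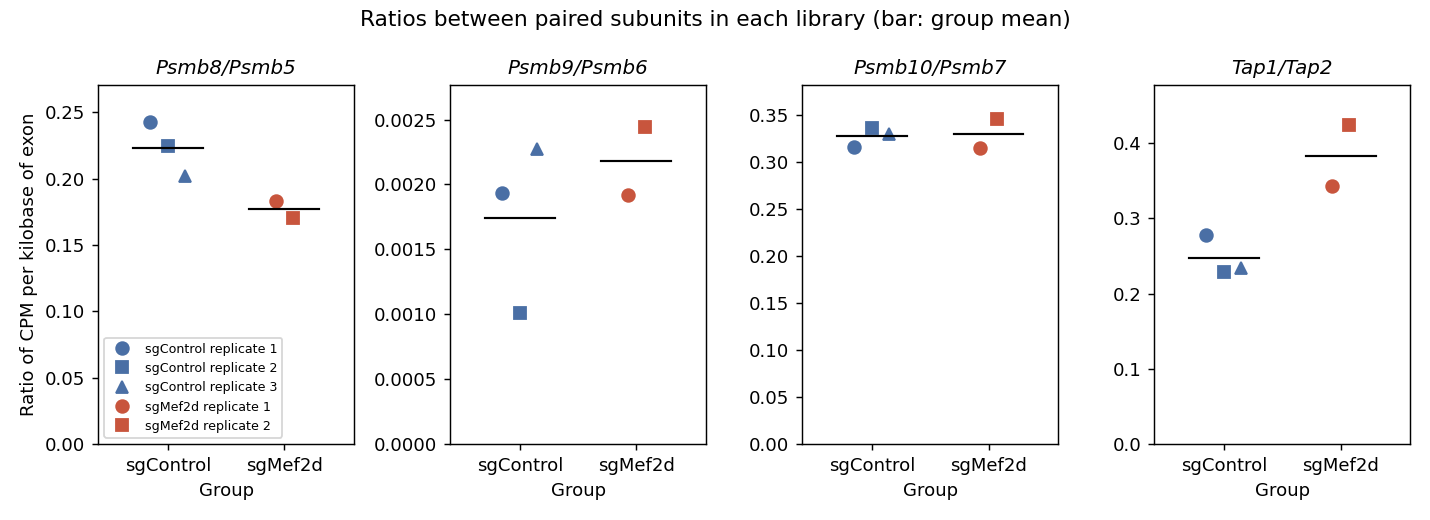
Ratio of CPM per kilobase of exon in each library for the 3 pairs of an inducible and a constitutive proteasome subunit and for Tap1 over Tap2, with circles, squares and triangles for replicates 1, 2 and 3 and a bar at each group mean. The Psmb8 to Psmb5 ratio is 0.242, 0.224 and 0.202 in sgControl and 0.183 and 0.171 in sgMef2d, the other subunit ratios overlap between the groups, and Tap1 over Tap2 does not.

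Nlrc5, the class I transactivator, had 30, 24 and 30 counts in sgControl and 15 and 17 counts in sgMef2d, or 1.46, 1.70 and 2.20 CPM and 0.883 and 1.14 CPM. Both sgMef2d libraries were below the 3 sgControl libraries. The log2 fold change of Nlrc5 was -0.79 (95% confidence interval -1.51 to -0.07, edgeR adjusted p = 0.175), the member's difference that was farthest from 0. Without sgControl replicate 1 it was -0.95 and past the threshold (edgeR adjusted p = 0.0443), and over the alternatives tried the adjusted p ranged from 0.0443 to 0.598. The interval spans a fold from 0.350 to 0.954, so that the size of the difference was poorly fixed by these counts.

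The rest of the pathway was read from 8 lists of 141 further genes, of which 113 were listed and 112 tested. Of these, 13 were past the threshold, 9 higher and 4 lower in sgMef2d (11.6%, as against 7.95% of all genes tested), and their median log2 fold change was 0.06. Without sgControl replicate 1 the count was 52 (41 higher, 11 lower), in a fit that called 29.4% of all genes tested. Without sgControl replicates 2 and 3 it was 7 and 8, where 4.84% and 6.51% of all genes were called. Without sgMef2d replicate 1 only Socs3 remained, and without sgMef2d replicate 2 the count was 2, Socs3 among them, fits that leave that group with a single library and take its spread from sgControl.

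**Figure D5:**
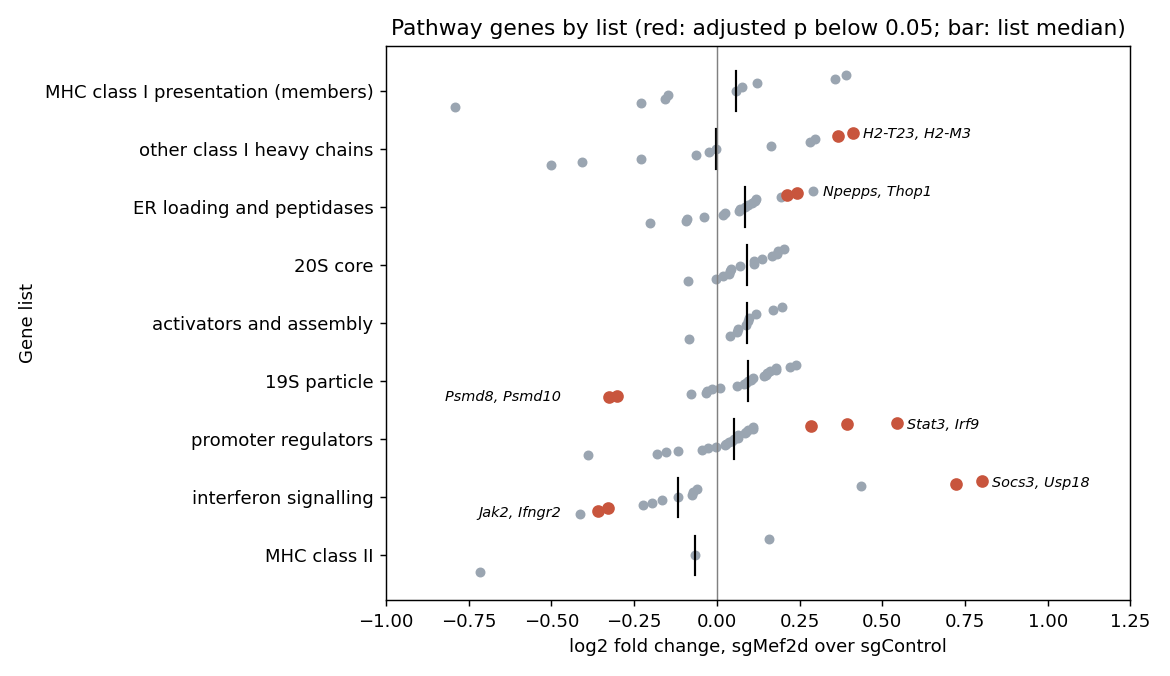
Log2 fold changes of sgMef2d over sgControl for the members and the 8 further lists, 1 point per gene tested, with red points for an adjusted p below 0.05 and a bar at each list's median. No member is red, and the 13 red points, 9 higher and 4 lower, lie among the class I heavy chains, the peptidases, the 19S particle, the promoter regulators and interferon signalling. Labels name the genes described in the text.

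Among 24 other class I heavy chains, 11 were listed and tested, and 2 rose (background 7.95% in either direction), as they did without sgControl replicate 1 (background 29.4%). H2-L, H2-Q8, H2-Q9 and H2-T9 have no entry in the annotation used here for gene names. Their absence from the counts therefore says nothing about their RNA. H2-M3, which presents formylated peptides, rose from 22.5, 21.1 and 21.3 CPM to 30.01 and 27.6 CPM, with a log2 fold change of 0.41 (edgeR adjusted p = 0.0140). H2-T23, whose product Qa-1 is read by inhibitory receptors of NK cells, rose from 27.1, 33.8 and 31.5 CPM to 37.1 and 42.0 CPM, with a log2 fold change of 0.37 (edgeR adjusted p = 0.0496). Both sgMef2d libraries were above the 3 sgControl libraries for both genes. The call of H2-T23 was at the edge and was lost in 8 of 13 alternatives, DESeq2 and other scalings among them, and that of H2-M3 was lost without sgControl replicate 2 (adjusted p up to 0.220 over its alternatives) and without either sgMef2d library. The most abundant of the list, H2-Q4, had 67.9 to 71.5 CPM in sgControl and 66.5 and 73.7 CPM in sgMef2d. Of its 50-base words 21.8% are shared with other genes, as are 13.6% of those of H2-T23 and 0.576% of those of H2-M3. Reads of these genes too were aligned to the reference strain. Whether H2-M3 or H2-T23 responded differently from H2-D1 was not tested.

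Of the 17 genes of peptide loading and trimming, 2 rose and 0 fell (background 7.95% in either direction), and without sgControl replicate 1 8 of 17 were past the threshold, 6 higher and 2 lower (background 29.4%). Thop1, a cytosolic peptidase that can destroy class I peptides, rose from 82.8, 81.3 and 78.9 CPM to 95.3 and 96.3 CPM (log2 fold change 0.24, edgeR adjusted p = 0.0306), and Npepps, a cytosolic aminopeptidase, rose from 176, 175 and 185 CPM to 206 and 207 CPM (log2 fold change 0.21, edgeR adjusted p = 0.0437). Both calls were lost with DESeq2 and without sgControl replicate 2 or 3. The ER chaperones of the loading complex, Calr, Canx and Pdia3, had log2 fold changes of 0.19, 0.11 and 0.09 that did not pass (edgeR adjusted p = 0.128, 0.366 and 0.414), though Calr and Pdia3 were past the threshold without sgControl replicate 1.

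Of the constitutive 20S core, 0 of 14 genes passed with edgeR (background 7.95%), DESeq2 or limma-voom, and 4 had an unadjusted p below 0.05 (background 23.2%). Of the 14, 12 had a log2 fold change above 0, as did 6326 of all 12483 genes tested, and their median was 0.09. Without sgControl replicate 1, 9 of the 14 were past the threshold (background 29.4%), all higher in sgMef2d, among them Psmb5, Psmb6 and Psmb7, whose log2 fold changes with all libraries were 0.18, 0.18 and 0.11. That of Psmb5 was 0.10 without sgMef2d replicate 2 (edgeR adjusted p = 0.734). Of the proteasome activators and assembly factors, 0 of 10 passed with any of these tools and 1 had an unadjusted p below 0.05, while 3 passed, all higher, without sgControl replicate 1 (background 29.4%). The interferon-inducible activator genes Psme1 and Psme2 had log2 fold changes of 0.06 and 0.10. Of the 19S particle, 2 of 21 passed, both lower, a share near the background of 7.95%. Psmd10, which encodes gankyrin, an assembly chaperone of the particle, fell from 66.4, 62.8 and 63.1 CPM to 51.8 and 52.4 CPM (log2 fold change -0.30, edgeR adjusted p = 0.0176), and Psmd8 fell from 188, 156 and 158 CPM to 135 and 133 CPM (log2 fold change -0.33, edgeR adjusted p = 0.0328), both in edgeR's quasi-likelihood test. Without sgControl replicate 1, 15 of the 21 passed, 13 higher and 2 lower, Psmd10 and Psmd8 (background 29.4%).

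Of the regulators of class I promoters, 3 of 23 tested rose and 0 fell (background 7.95% in either direction), Irf9 and Stat3 among the 3. Of the 23, 8 passed without sgControl replicate 1, 5 higher and 3 lower (background 29.4%). Irf9, the DNA-binding subunit of the complex that type I interferon signalling forms, rose from 13.8, 15.03 and 14.9 CPM to 22.1 and 20.3 CPM (log2 fold change 0.55, edgeR adjusted p = 0.00588). Stat3 rose from 144, 151 and 154 CPM to 176 and 187 CPM (log2 fold change 0.28, edgeR adjusted p = 0.0143), a call lost without sgControl replicate 2 (0.29, edgeR adjusted p = 0.0546). Stat2 (0.06) and Irf1 (0.11), the factor with a direct part in Tap1, Psmb9 and class I induction, did not pass, Irf1 having 84.6 to 99.2 CPM in sgControl and 99.5 and 96.8 CPM in sgMef2d. Irf1 was past the threshold without sgControl replicate 1 (log2 fold change 0.18, edgeR adjusted p = 0.00398), where Stat2 turned to -0.09, and was at 0.06 without sgControl replicate 3 (edgeR adjusted p = 0.727). The RFX genes, whose products NLRC5 joins at the X box, did not pass either, with log2 fold changes of -0.0022 for Rfx5, -0.39 for Rfxank (edgeR adjusted p = 0.171) and 0.09 for Rfxap, those of Rfx5 and Rfxap turning sign in single alternatives.

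In interferon signalling, 4 of 13 genes tested passed (background 7.95%), and 7 without sgControl replicate 1, 3 higher and 4 lower (background 29.4%). The inhibitors Socs3 and Usp18 rose. Socs3 went from 30.9, 31.5 and 24.6 CPM to 49.4 and 46.6 CPM (log2 fold change 0.72, edgeR adjusted p = 0.00126), and it kept its call in all 13 alternatives. Usp18, which is itself induced by interferon, went from 5.61, 3.55 and 5.06 CPM to 8.83 and 7.95 CPM (log2 fold change 0.80, edgeR adjusted p = 0.0207). The interferon gamma receptor chain Ifngr2 fell from 53.6, 47.7 and 52.0 CPM to 39.7 and 41.7 CPM (log2 fold change -0.33, edgeR adjusted p = 0.0231), and the kinase gene Jak2, which that receptor uses, fell from 41.5, 48.7 and 46.8 CPM to 37.1 and 33.8 CPM (log2 fold change -0.36, edgeR adjusted p = 0.0296), both in the same edgeR test. Ifngr2 lost its call without sgControl replicate 3, and Jak2 without sgControl replicate 2 or 3. The interferon genes searched for, Ifnb1, Ifng, Ifnl2, Ifnl3 and Ifne, were not listed.

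Of 13 MHC class II genes, which serve presentation to CD4 T cells, 3 were listed, H2-DMa, Cd74 and Ifi30. Of these, 0 passed with edgeR, DESeq2 or limma-voom (background 7.95%, 6.13% and 7.55%), nor at an unadjusted p below 0.05 (background 23.2%). With 3 genes, a count of 0 does not set them apart from that background. The class II transactivator Ciita was not listed. Of 14 other surface ligands that T and NK cells read, 9 were listed and 1 rose (background 7.95% in either direction). Of the 9, 5 passed without sgControl replicate 1, 1 higher and 4 lower (background 29.4%). Cd80, a costimulatory ligand, had 4, 4 and 0 counts in sgControl and 22 and 21 counts in sgMef2d (edgeR adjusted p = 0.00764), and its call was lost without either sgMef2d library. Cd274, which encodes PD-L1, had between 1.17 and 1.71 CPM in sgControl and 1.29 and 1.14 CPM in sgMef2d, with overlap. The Cd80 difference stood beside the 3 listed leukocyte markers. Of these, 0 passed with edgeR, DESeq2 or limma-voom (background 7.95%, 6.13% and 7.55%), and 1 had an unadjusted p below 0.05 (background 23.2%). All 3 had a log2 fold change above 0, and 1 passed, higher in sgMef2d, in 2 of the 13 alternatives. These were that without sgControl replicate 3 (background 6.51%) and the replicate block (background 10%). Lyz2 had 0.0709 to 0.806 CPM in sgControl and 0.883 and 1.01 CPM in sgMef2d. The part of leukocyte RNA in the Cd80 difference was not tested, and Ptprc was not listed.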

How the data were processed

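Poly(A) RNA of 3 sgControl and 2 sgMef2d EpH4 libraries was prepared with a kit that marks the strand. The authors aligned reads with STAR2 to GRCm38 after FASTQC, checked them with RSeQC, and deposited raw counts per gene without genes of low count. The submitters' processing notes also name CASAVA and Subread, and the strand setting of the counting is not given in the sources used here. All 12934 identifiers matched GENCODE M21 symbols, 12811 with the same version, and every sample column was used.

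The counts were scaled by TMM factors in edgeR 4.0.16 under R 4.3.3 (0.996 to 1.00), filtered by group with the default expression filter, and tested with the bias-adjusted quasi-likelihood test, with Benjamini-Hochberg adjustment over 12483 genes and a threshold of 0.05. The study's methods do not name the test of single genes. Standard errors were the log2 fold change over the square root of F, and intervals used the t distribution of that fit. A floor of 3 counts corresponded to 0.146 to 0.220 CPM. The floor covers counting error only, since reads without molecular identifiers are not independent molecules. Alternatives were other scalings and filters, the legacy form, DESeq2 1.42.0, limma-voom (limma 3.58.1), a replicate block, other thresholds and leaving out each library, and the functions were tested on simulated counts. Ratios used the CPM per kilobase of exon. Named were the members, Psmb5, Psmb6, Psmb7, Mef2d, the factors Irf1, Irf9, Stat2, Rfx5, Rfxank and Rfxap, and the genes of each list past the threshold, of which 1 is counted but not reported here. Other genes, Cd274, H2-Q4, Psme1, Psme2, Calr, Canx, Pdia3 and the markers among them, were chosen after their values were seen. The members and lists were chosen with earlier results of these data known.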

Additional observations from a re-analysis of the deposited data

How the results depend on the processing

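The count of genes past the threshold was 422 at an adjusted p below 0.01 and 1584 below 0.10, and between 234 and 3639 when single libraries were left out, 234 without sgMef2d replicate 2, 238 without sgMef2d replicate 1, 603 without sgControl replicate 2 and 3639 without sgControl replicate 1. The count of members was 0 under all other settings and between 0 and 3 when single libraries were left out, 3 without sgControl replicate 1. The count of pathway genes was 2 at 0.01, 20 at 0.10, and between 1 and 52 when single libraries were left out. DESeq2, limma-voom, other scalings and other filters kept between 10 and 13 of the 13 pathway calls. The sgControl mean ratio moved with the length used, for Psmb8 to Psmb5 from 0.223 to 0.395 with the longest transcript and 0.802 with the coding length, for Psmb9 to Psmb6 from 0.00174 to 0.00369 with the coding length, and for Psmb10 to Psmb7 from 0.328 to 0.355 and 0.166. The group difference of the last ratio, between -0.058 and 0.078 on the log2 scale when libraries were left out, turned negative without sgControl replicate 1 (-0.014) or sgMef2d replicate 2 (-0.058). The log2 fold change of Tapbp turned to -0.013 without sgMef2d replicate 2 (0.15 without sgMef2d replicate 1), of Stat2 to -0.087 without sgControl replicate 1 (0.14 without sgControl replicate 3), of Rfx5 to 0.0017 with the stricter filter, 0.020 without sgControl replicate 2 and 0.13 without sgMef2d replicate 2 (-0.16 without sgMef2d replicate 1), and of Rfxap to -0.011 with the replicate block and -0.0082 without sgControl replicate 3 (0.16 without sgMef2d replicate 1). The causes were not tested. The labels do not say whether same-numbered libraries were prepared together. Deviations of same-numbered libraries from their group means had correlations over genes of 0.011 and -0.00092, so no shared deviation was seen. The deviations of the 2 sgMef2d libraries are mirror images of each other, so this check cannot decide whether the libraries are paired. With the replicate block 1254 genes (10% of those tested), 0 members and 12 of the 13 pathway genes were past the threshold, as was 1 of the 3 leukocyte markers, higher in sgMef2d. Depth limits H2-K1, Psmb9 and Nlrc5, which had at most 30 counts in a library.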
